A study of Rattus norvegicus with 15 samples.

Results

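Solute carriers (SLC) are the membrane proteins that move nutrients, ions, metals and metabolites across the plasma membrane and the membranes of organelles. Their genes were followed in H9c2, a myoblast line derived from rat heart, over 14 days of culture with or without all-trans retinoic acid (RA). A gene was taken as a member when the deposited annotation lists it as protein-coding, its symbol has the form Slc, number, a, number, and its counts over the 15 libraries summed to 100 or more. These were 134 genes of the 11574 in the table, in 41 families, 11 of which held 1 member. The symbol form was met by 167 genes, and 33 of them were below 100 counts. The members were chosen by their total count, so the levels below are a description. There were 3 cultures in each of 5 groups: T0 at day 0, T7-RA and T14-RA at days 7 and 14 without RA, and at the same days T7+RA and T14+RA, with 1 µM RA each day. All groups are the same line with no transgene, and serum was lowered from 10% to 1% after T0, so that time in culture and the serum change cannot be told apart. RA was prepared in DMSO, and whether the cultures without RA received that vehicle is not given in the sources used here.

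SLC genes are numbered by family, and the family number follows sequence relatedness and, for the most part, the kind of cargo. Exchangers of the SLC7 family work with a heavy subunit of the SLC3 family and bring in essential amino acids, while SLC1, SLC6 and SLC38 members use the sodium gradient to bring in amino acids, creatine or taurine. SLC25 proteins sit in the inner mitochondrial membrane, SLC30 proteins move zinc out of the cytosol and SLC39 proteins move it in, and SLC4, SLC9, SLC12 and SLC24 proteins exchange or co-transport inorganic ions. Muscle is known for its use of SLC2A4, the insulin-responsive glucose transporter, of the creatine transporter SLC6A8 and of the taurine transporter SLC6A6. 4 of the 134 members carry the symbol form but are no carriers: Slc9a3r1 and Slc9a3r2 encode scaffold proteins, and Slc4a1ap and Slc7a6os are named after a neighbouring or bound carrier.

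Library totals ranged from 508397 to 1030820 counts. Levels are CPM, counts scaled to a common library size by the TMM method of edgeR, given per culture or as mean ± SD (n = 3 cultures). Of 9 myoblast and myotube markers 7 were in the table, without Myf5 and Myf6, and their summed level was 876 to 904 CPM at T0, 2879.9 to 3303 in T7-RA against 1872 to 2178 in T7+RA, and 9263 to 9642 in T14-RA against 4159 to 4873 in T14+RA. Myh3 and Acta1 made up most of that sum in T7-RA and at day 14, and they were the markers of this list called for RA (log2 change −1.33 and −0.86, edgeR adjusted p = 4.86e-21 and 5.52e-13), while the RA change of the other 5 lay between −0.30 for Myog and 0.33 for Myod1. At T14 Myog, Des, Ckm, Acta1 and Myh3 rose, Cdh15 fell (−1.10, edgeR adjusted p = 3.5e-12) and Myod1 was not called (−0.88, edgeR adjusted p = 0.00689). Of 9 cardiac muscle markers only Gata4 was in the table, at 6.90 to 21.0 CPM at T0 and 11.9 to 21.6 in T14-RA. Of 5 fibroblast markers 4 were in the table, without Pdgfra, and their sum, mostly Col1a1, was 27431 to 40872 CPM at T0, 26939 to 30417 in T7-RA against 26544 to 29842 in T7+RA, and 28416 to 28654 in T14-RA against 23268 to 29466 in T14+RA. Within it Col1a1 fell at T14 (−0.56, edgeR adjusted p = 7.17e-06) and Col3a1 rose (1.38, edgeR adjusted p = 6.79e-19). Dcn had no count at T0 and stood at 42.5 to 56.5 CPM in T14-RA and 96.5 to 154 in T14+RA. With RA, Col3a1 and Thy1 changed by −0.48 and −0.49 and Dcn rose by 1.08 (edgeR adjusted p = 1.22e-07, 5.26e-05 and 0.000229). The 3 endothelial and 3 macrophage markers were not in the table. The part of these marker genes in the results was not tested. In these bulk libraries fewer cells of a kind and less RNA per cell cannot be told apart.

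2 mitochondrial carriers, Slc25a4 and Slc25a3, stood highest among the members. On the scale of CPM per kilobase of the length deposited with each gene, averaged over the 15 libraries, Slc25a4 and Slc25a5, which exchange ADP for ATP, were at 481 and 168, and Slc25a3, the mitochondrial phosphate carrier, was at 348. Among amino acid carriers, Slc38a2 (a sodium-coupled importer of small neutral amino acids) was at 159, the heavy subunit Slc3a2 at 149 and its partner Slc7a5 at 92.6. The heme transporter Slc48a1 (145), the taurine transporter Slc6a6 (116), the potassium-chloride cotransporter Slc12a4 (90.2) and the zinc transporter Slc39a7 (87.0) completed the first 10. These 10 genes held 43.4% of the summed level per kilobase, the median member stood at 15.0, and the highest was 175 times the lowest. The order below Slc25a4 and Slc25a3 differed between groups, and at T0 Slc38a2 (181) and Slc48a1 (179) stood above Slc25a5 in the mean. Neighbours in this order often did not differ beyond the spread between cultures: at T0 Slc25a5 stood at 155 ± 27.5, Slc3a2 at 156 ± 22.5 and Slc7a5 at 146 ± 8.72 per kilobase. Slc25a4 and Slc25a5 are close relatives, and reads shared between them carry an uncertainty that the counts cannot resolve.

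**Figure D1:**
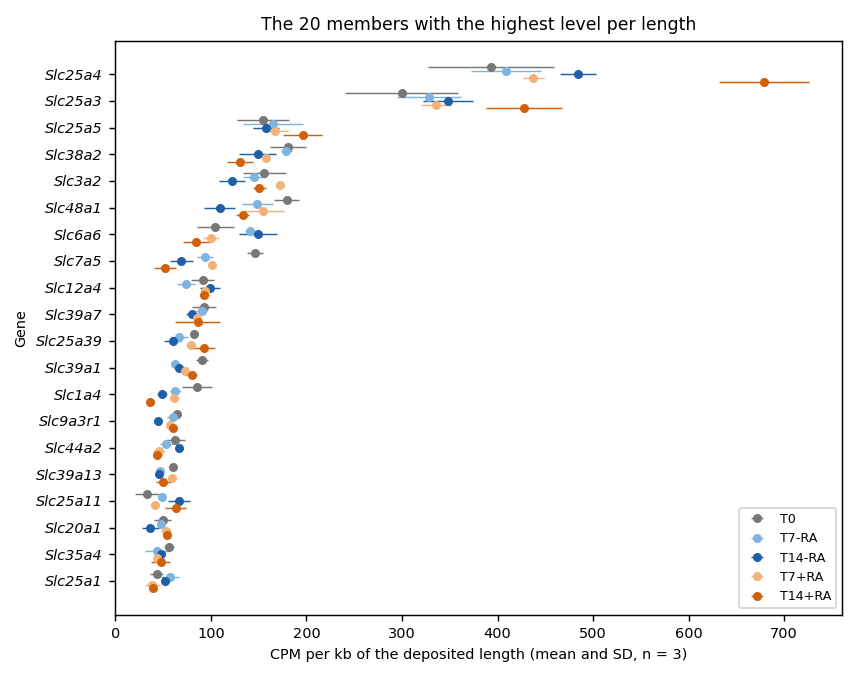
The horizontal axis gives the level in CPM per kilobase of the deposited gene length for the 20 members with the highest levels, one row per gene, with points for the mean of each of the 5 groups and bars for the SD of 3 cultures. Slc25a4 and Slc25a3 stood above the other members, and their T14+RA points, at 679 and 428, were the highest of their rows.

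The members just inside the minimum of 100 counts were Slc25a42 (108 counts over the 15 libraries), Slc25a40 (113) and Slc38a9 (124), and those just outside were Slc2a1 (98), Slc45a4 (98) and Slc22a5 (95). The glucose transporter Slc2a1 and the carnitine transporter Slc22a5 were therefore outside the members by a few counts. At T0 Slc2a1 stood at 22.1, 9.38 and 12.6 CPM. The other family names of the SLC system, such as Slc35b or Slco, fall outside the symbol form, which left 17 further genes of the table aside. The summed level of all members was 10447 ± 321 CPM at T0, 10298 ± 245 in T7-RA against 10645 ± 50.9 in T7+RA, and 10371 ± 330.4 in T14-RA against 10774 ± 104 in T14+RA.

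Which members changed with time and which with RA was read from edgeR's quasi-likelihood test of an additive model. Its T7 and T14 terms compare each day with T0 after allowing for RA, and its RA term averages the response to RA over the 2 days. A member was called at a Benjamini-Hochberg adjusted p under 0.001 over all 11574 genes. T14 was associated with 24 members, of which 17 rose and 7 fell; this is 17.9% of the members, beside 17.3% of all genes and 20.8% of the genes with 100 counts or more. T7 was associated with 12 members (9 up and 3 down, 8.96%), beside 8.73% and 10.8%. RA was also associated with 12 members (5 up and 7 down, 8.96%), beside 6.39% and 7.62%. Without T0 replicate 1 the T7 number was 7, beside 655 of all genes, where the main fit called 1010. Scaling by library size alone also called 12 members for T7, of which 11 rose, but not the same 12, as Slc38a10 and Slc39a1 lost their calls. This scaling moved the median change of all genes to 0.13 for T7 and 0.15 for T14. The members were thus called about as often as other genes of the table. In all, 34 members were called for at least 1 term (25.4%, beside 21.2% of all genes), and 10 were called for both T7 and T14 (7.46%, beside 7.87%), 8 for RA alone (5.97%, beside 3.05%) and 2, Slc1a3 and Slc29a1, for all 3 terms (1.49%, beside 2.03%). The terms share libraries, T7 and T14 the T0 cultures and RA the cultures of both days, so these overlaps are not independent. The median log2 change of the members was 0.02 for T7, 0.03 for T14 and 0.12 for RA, beside 0.02, 0.05 and −0.01 over all genes. The RA change was above 0 in 84 of the 134 members (62.7%), beside 48.7% of all genes.

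**Figure D2:**
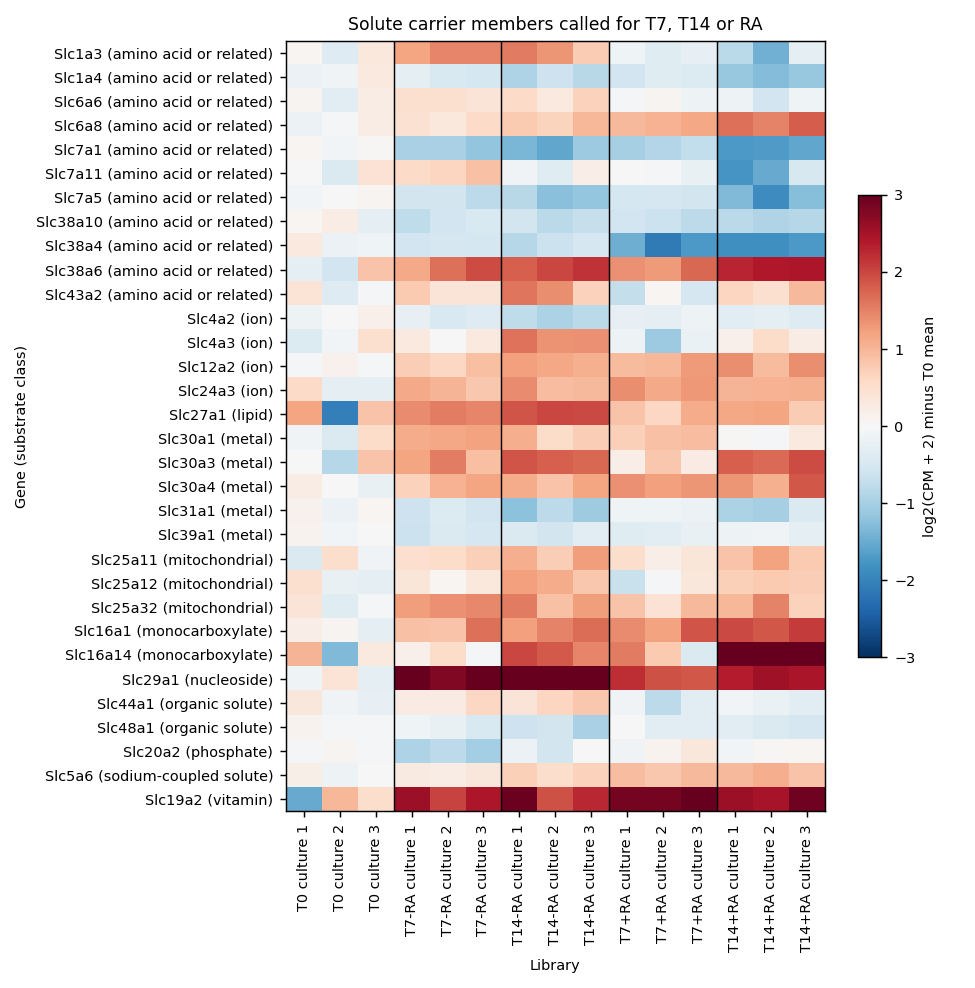
Each row is 1 of 32 of the 34 members called for T7, T14 or RA, named with its substrate class, and each column is 1 of the 15 cultures; the colour gives log2(CPM + 2) minus the T0 mean of that gene, cut at 3 in both directions. Slc29a1 and Slc19a2 are red in all columns after T0, Slc16a14 reaches the cut in T14+RA, Slc7a1 and Slc7a5 turn blue with time, and Slc1a3 and Slc38a4 turn bluer in the columns with RA.

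The called members lay in 21 of the 41 families. The largest families outside these were SLC35, with 5 nucleotide sugar transporters, and the sugar transporter family SLC2, with 4 members. Of the 22 members in families for amino acids and related solutes, 4 rose and 4 fell at T14 (36.4%, beside 17.3% of all genes), and 1 rose and 4 fell with RA (22.7%, beside 6.39%). Of the 25 mitochondrial carriers 3 rose at T14 (12%, beside 17.3% of all genes). Among the 23 members for metals 2 rose and 1 fell at T7, and again 2 rose and 1 fell at T14 (13.0% each time, beside 8.73% of all genes for T7 and 17.3% for T14). These classes are small, and nothing particular to them is read from the shares. At an adjusted p under 0.05 the numbers of members, with the shares of all genes and of genes with 100 counts or more beside their own, were 38 for T7 (28.4%, beside 23.1% and 27.4%), 55 for T14 (41.0%, beside 35.4% and 40.4%), 28 for RA (20.9%, beside 14.7% and 16.7%), 11 for the second week without RA (8.21%, beside 7.79% and 9.08%), 13 for RA at day 7 (9.70%, beside 7.41% and 8.9%) and 22 for RA at day 14 (16.4%, beside 11.2% and 12.8%).

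**Figure D3:**
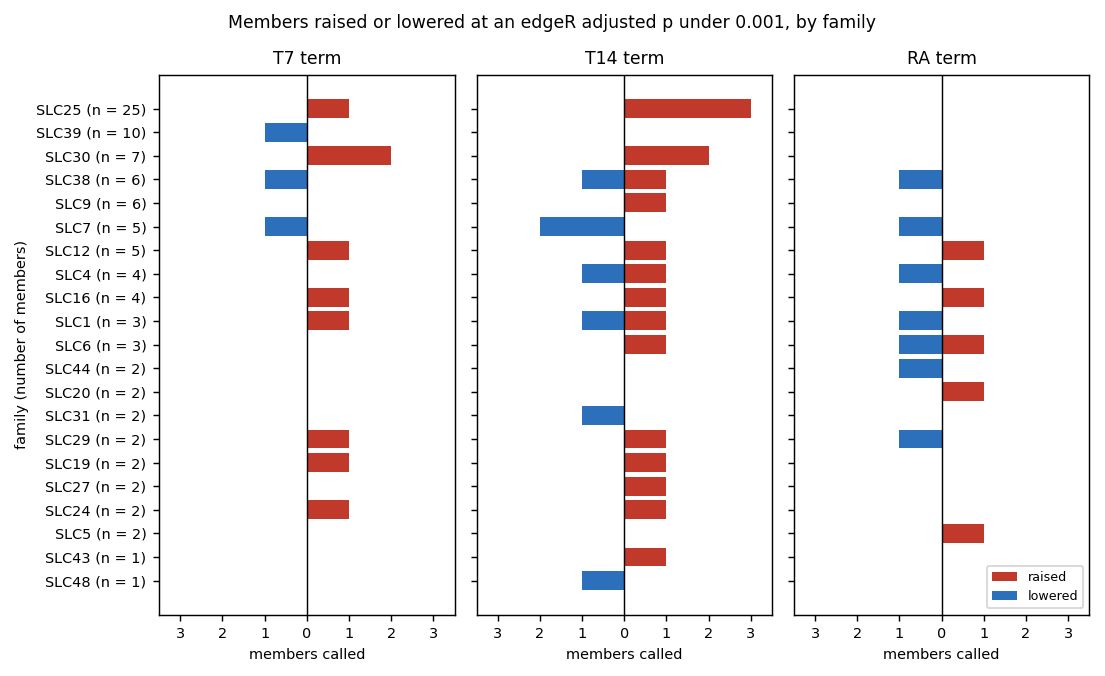
Bars count the members called for the T7, T14 and RA terms at an edgeR adjusted p under 0.001 in each of the 21 families with a call, raised to the right and lowered to the left, with the number of members beside the family name. For T14, SLC25 had 3 raised members, SLC30 had 2 raised and SLC7 had 2 lowered.

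Of the 7 members that fell at T14, 4 belong to families for amino acids and related solutes, where 4 other members rose. Slc7a1 (ENSRNOG00000000924, band 12p11), the cationic amino acid transporter that takes up arginine and lysine, stood at 292, 265 and 289 CPM at T0, 142, 142 and 123 in T7-RA against 139.7, 152 and 168 in T7+RA, and 107, 93.9 and 130.4 in T14-RA against 83.9, 84.9 and 94.3 in T14+RA. Every culture of days 7 and 14 was below every T0 culture, with or without RA. The log2 change was −0.94 for T7 (SE 0.131 and edgeR adjusted p = 8.41e-08) and −1.49 for T14 (SE 0.136 and edgeR adjusted p = 6.37e-14). Slc7a5, the light subunit of the large neutral amino acid exchanger, was at 480.1, 497 and 539 CPM at T0, 342, 341 and 290.5 in T7-RA against 352, 357 and 345 in T7+RA, and 285, 209 and 224 in T14-RA against 201, 135 and 207 in T14+RA. It too was lower at days 7 and 14 than at T0 in every culture, and fell by 1.20 on the log2 scale at T14 (SE 0.126 and edgeR adjusted p = 2.95e-11). Its heavy subunit Slc3a2 did not pass the test at T14 (319.7 ± 46.2 CPM at T0 and 251 ± 27.8 in T14-RA, log2 change −0.34, SE 0.116 and edgeR adjusted p = 0.017). Slc1a4, a sodium-coupled exchanger of alanine, serine and cysteine, was at 288, 302 and 398 CPM at T0, 172, 211 and 183 in T14-RA and 148, 132 and 147 in T14+RA. The day 14 cultures did not overlap with T0, and the T14 change was −0.90 (SE 0.126 and edgeR adjusted p = 3.75e-08). Its relative Slc1a5, the glutamine transporter, was at 89.0 ± 13.3 CPM at T0 and 55.5 ± 19.7 in T14-RA and was not called (−0.60, SE 0.199 and edgeR adjusted p = 0.0134). Slc38a10, a member of the sodium-coupled neutral amino acid family, changed by −0.60 at T7 (SE 0.129 and edgeR adjusted p = 0.000302) and by −0.74 at T14 (SE 0.131 and edgeR adjusted p = 6.87e-06). Slc38a10 lost its T7 call in 4 of the 15 fits that each left out 1 library, those without T0 replicates 1 and 2 and T7-RA replicates 1 and 2 (adjusted p from 0.00111 to 0.00648), and with library size only (0.00312).

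3 further members fell at T14, each with another cargo. Slc31a1, the high-affinity copper importer, was at 95.2, 76.9 and 90.1 CPM at T0, 56.1, 64.5 and 58.1 in T7-RA against 79.8, 79.2 and 77.1 in T7+RA, and 36.0, 49.6 and 40.6 in T14-RA against 44.4, 42.4 and 63.5 in T14+RA. Its T14-RA and T14+RA cultures were below all T0 cultures, and the T14 change was −1.13 (SE 0.191 and edgeR adjusted p = 2.31e-06). Slc4a2, a chloride-bicarbonate exchanger, went from 183 ± 20.3 CPM at T0 to 101 ± 6.73 in T14-RA and 145 ± 5.71 in T14+RA (T14 change −0.72, SE 0.139 and edgeR adjusted p = 3.04e-05). Slc48a1, which moves heme out of endosomes and lysosomes, went from 278 ± 19.9 CPM to 169 ± 25.1 and 206 ± 10.6 (T14 change −0.65, SE 0.126 and edgeR adjusted p = 2.91e-05). Slc48a1 lost its T14 call without T0 replicate 1 (adjusted p = 0.00183).

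The member with the largest rise was Slc29a1 (ENSRNOG00000019752, band 9q12), which encodes the equilibrative nucleoside transporter that carries adenosine. Its level was 9.66, 15.0 and 8.38 CPM at T0, 99.0, 84.7 and 110.4 in T7-RA against 57.0, 45.6 and 44.6 in T7+RA, and 184, 166 and 163 in T14-RA against 62.7, 72.3 and 67.1 in T14+RA. No 2 of the 5 groups overlapped: T0 was lowest, T14-RA was highest, and both groups with RA lay between T0 and the group without RA of the same day. The log2 change was 3.21 for T7 (SE 0.261 and edgeR adjusted p = 4.51e-15) and 3.89 for T14 (SE 0.245 and edgeR adjusted p = 3.34e-20). Between days 7 and 14 without RA it rose again, by 0.81 (SE 0.152 and edgeR adjusted p = 7.5e-05). The bicarbonate exchanger Slc4a3, known from heart and brain, rose late. It was at 24.8, 31.9 and 48.2 CPM at T0, 41.8, 33.6 and 42.1 in T7-RA against 29.9, 14.8 and 29.1 in T7+RA, and 108, 88.6 and 89.7 in T14-RA against 37.6, 50.3 and 39.9 in T14+RA, so that T14-RA was above all other groups while T7-RA overlapped with T0. Slc4a3 rose by 1.44 at T14 (SE 0.233 and edgeR adjusted p = 9.8e-07) and by 1.30 in the second week without RA (SE 0.214 and edgeR adjusted p = 6.51e-06). These 2 were the only members called for the second week without RA by edgeR (T14-RA against T7-RA, 1.49% of the members, beside 2.95% of all genes and 3.5% of those with 100 counts or more). Slc29a1 lost its second week call without T7-RA replicate 1 (0.00112), T7-RA replicate 2 (0.00352) or T14-RA replicate 1 (0.00367), and with DESeq2 (0.00137).

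3 members with other cargoes, Slc19a2, Slc16a1 and Slc25a32, rose at both T7 and T14. Slc19a2, a thiamine transporter, was at 0, 9.38 and 6.29 CPM at T0, 32.2, 21.5 and 29.0 in T7-RA against 39.9, 40.3 and 51.4 in T7+RA, and 42.0, 19.5 and 25.4 in T14-RA against 31.8, 29.9 and 41.7 in T14+RA. All cultures of days 7 and 14 were above those of T0, where the counts were 0, 5 and 3. The log2 change was 2.66 for T7 (SE 0.462 and edgeR adjusted p = 1.05e-05) and 2.52 for T14 (SE 0.470 and edgeR adjusted p = 1.58e-05), and with counts this low at T0 its size is uncertain. Slc16a1, the monocarboxylate transporter that carries lactate and pyruvate with a proton, was at 38.6, 35.6 and 27.3 CPM at T0, 63.2, 61.8 and 110.4 in T7-RA against 92.7, 80.5 and 130.3 in T7+RA, and 81.7, 97.4 and 112 in T14-RA against 139, 127 and 150.5 in T14+RA. Again no culture of days 7 or 14 overlapped with T0, and the change was 1.12 for T7 (SE 0.231 and edgeR adjusted p = 0.000168) and 1.51 for T14 (SE 0.226 and edgeR adjusted p = 1.74e-07). Slc25a32, a mitochondrial carrier of folate and flavin adenine dinucleotide, went from 17.8 ± 5.23 CPM at T0 to 47.8 ± 3.39 in T7-RA, then 44.3 ± 10.8 in T14-RA (T7 change 1.28, SE 0.289 and edgeR adjusted p = 0.000567; T14 change 1.40, SE 0.290 and edgeR adjusted p = 9.16e-05). Slc19a2 lost its T7 call without T0 replicate 1 (adjusted p = 0.00164). Slc19a2 lost its T14 call without T0 replicate 1 (adjusted p = 0.00226). Slc16a1 lost its T7 call without T0 replicate 1 (0.00114), T0 replicate 3 (0.0026) or T7-RA replicate 3 (0.00215), and with limma-voom (0.00245). Slc25a32 lost its T7 call in 5 of the 15 fits that each left out 1 library, those without T0 replicates 2 and 3 and T7-RA replicates 1, 2 and 3 (adjusted p from 0.00155 to 0.00604), and with DESeq2 (0.00256) and with limma-voom (0.00274). Slc25a32 lost its T14 call without T0 replicate 2 (adjusted p = 0.00121).

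3 of the 7 members of the zinc efflux family SLC30 were called up for T7 or T14 (42.9%, beside 8.98% of all genes and 10.5% of those with 100 counts or more). In the zinc import family SLC39, 1 of the 10 members was called down for T7 (10.0%, beside 4.44% and 5.52%). Both families are small and were picked out of 41, so nothing particular to them is read from these shares. Slc30a1, the zinc exporter of the plasma membrane, stood at 56.6, 45.0 and 90.1 CPM at T0, 136, 138 and 144 in T7-RA against 103, 114 and 118 in T7+RA, and 133, 90.3 and 103 in T14-RA against 62.7, 59.7 and 76.1 in T14+RA. It was above T0 in every culture at day 7, whereas T14+RA overlapped with T0, and it was called for T7 (1.24, SE 0.183 and edgeR adjusted p = 3.54e-07) and not for T14 (0.72, SE 0.191 and edgeR adjusted p = 0.00207). Slc30a4, which loads zinc into vesicles, was at 92.4, 78.8 and 67.1 CPM at T0, 129, 165 and 180.1 in T7-RA against 207, 187 and 201 in T7+RA, and 173, 145 and 181 in T14-RA against 199.7, 168 and 294 in T14+RA. All later cultures were above T0, with a change of 0.95 for T7 (SE 0.170 and edgeR adjusted p = 2.1e-05) and 1.06 for T14 (SE 0.171 and edgeR adjusted p = 9.81e-07). Slc30a3, another vesicular zinc carrier, was at 8.28, 3.75 and 16.8 CPM at T0, 21.5, 28.2 and 17.4 in T7-RA against 9.98, 16.1 and 10.3 in T7+RA, and 36.0, 33.7 and 32.2 in T14-RA against 33.8, 31.4 and 38.1 in T14+RA. Both groups of day 14 were above T0, whereas T7+RA overlapped with it, and the T14 change was 2.02 (SE 0.369 and edgeR adjusted p = 1.04e-05). The zinc importer Slc39a1 went the other way at T7, from 235, 205 and 216 CPM at T0 to 138, 161 and 153 in T7-RA (−0.55, SE 0.123 and edgeR adjusted p = 0.000449). Per kilobase it was at 90.5 ± 6.28 at T0, 62.5 ± 4.79 in T7-RA and 73.2 ± 3.93 in T7+RA. The SLC30 members Slc30a5, Slc30a6, Slc30a7 and Slc30a9 were called for neither day. Summed over its members the SLC30 family stood at 321 ± 37.6 CPM at T0, 534 ± 39.5 in T7-RA against 532 ± 15.4 in T7+RA, and 522 ± 41.6 in T14-RA against 547 ± 71.0 in T14+RA. The SLC39 family stood at 922 ± 58.5 CPM at T0, 851 ± 36.4 in T7-RA against 926 ± 57.3 in T7+RA, and 779 ± 22.4 in T14-RA against 871 ± 65.3 in T14+RA. Its T7+RA sum was thus not below T0 in the mean. Slc39a1 lost its T7 call in 5 of the 15 fits that each left out 1 library, those without T0 replicates 1 and 3, T7-RA replicates 1 and 3 and T14-RA replicate 2 (adjusted p from 0.00114 to 0.0113), and with library size only (0.0046).

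Of the 20 members in families for inorganic ions, 2 rose at T7 (10.0%, beside 8.73% of all genes), and 4 rose and 1 fell at T14 (25.0%, beside 17.3%). Slc12a2 (ENSRNOG00000015971), the cotransporter of sodium, potassium and chloride, was at 77.3, 88.2 and 77.6 CPM at T0, 137, 126 and 154 in T7-RA against 158, 162 and 199 in T7+RA, and 191, 182 and 171 in T14-RA against 214, 157 and 216 in T14+RA. Every later culture was above T0, and the change was 0.83 for T7 (SE 0.158 and edgeR adjusted p = 4.7e-05) and 1.12 for T14 (SE 0.156 and edgeR adjusted p = 3.06e-08). Slc24a3, a potassium-dependent exchanger of sodium and calcium, was at 42.8, 22.5 and 23.1 CPM at T0, 64.4, 59.1 and 50.8 in T7-RA, then 78.1, 54.9 and 57.6 in T14-RA (T7 change 1.02, SE 0.234 and edgeR adjusted p = 0.000719; T14 change 0.96, SE 0.236 and edgeR adjusted p = 0.000842). By contrast the sodium/calcium exchanger Slc8a1, which removes calcium from heart muscle cells, was at 109 ± 8.10 CPM at T0 and 72.9 ± 14 in T14-RA and did not pass (−0.53, SE 0.165 and edgeR adjusted p = 0.00819). Slc12a2 lost its T7 call without T0 replicate 1 (adjusted p = 0.00121). Slc24a3 lost its T7 call in 8 of the 15 fits that each left out 1 library, those without T0 replicates 2 and 3, T7-RA replicates 1 and 2, T14-RA replicate 1, T7+RA replicates 1 and 3 and T14+RA replicate 1 (adjusted p from 0.00118 to 0.0089), and with DESeq2 (0.00256) and with limma-voom (0.00208). Slc24a3 lost its T14 call in 7 of the 15 fits that each left out 1 library, those without T0 replicates 2 and 3, T7-RA replicate 1, T14-RA replicates 1, 2 and 3 and T7+RA replicate 2 (adjusted p from 0.00114 to 0.0111), and with DESeq2 (0.00281) and with limma-voom (0.0022).

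Besides Slc25a32, the mitochondrial carriers Slc25a11 and Slc25a12 rose at T14. Slc25a11, which exchanges oxoglutarate for malate, was at 27.6, 56.3 and 35.6 CPM at T0, 82.9, 65.5 and 93.1 in T14-RA and 70.4, 91.2 and 67.1 in T14+RA. Slc25a12, which exchanges aspartate for glutamate, was at 44.1, 26.3 and 25.2 CPM at T0, 75.7, 69.1 and 55.9 in T14-RA and 52.1, 55.0 and 52.6 in T14+RA. For both genes the day 14 cultures were above all T0 cultures, and the T14 change was 1.08 for Slc25a11 (SE 0.218 and edgeR adjusted p = 5.61e-05) and 1.03 for Slc25a12 (SE 0.237 and edgeR adjusted p = 0.000391). Slc25a13, which like Slc25a12 exchanges aspartate for glutamate, was at 26.2, 30.0 and 0 CPM at T0, 10.8, 17.7 and 13.5 in T14-RA and 4.82, 6.29 and 19.9 in T14+RA and was not called (−0.91, SE 0.571 and edgeR adjusted p = 0.235). The summed level of the 25 SLC25 members was 1813 ± 211 CPM at T0, 1925 ± 68.9 in T7-RA against 1998 ± 36.1 in T7+RA, and 2122 ± 19.0 in T14-RA against 2537 ± 156 in T14+RA. Slc25a11 lost its T14 call without T0 replicate 1 (adjusted p = 0.00519). Slc25a12 lost its T14 call in 4 of the 15 fits that each left out 1 library, those without T0 replicates 2 and 3 and T14-RA replicates 1 and 2 (adjusted p from 0.00114 to 0.00384), and with DESeq2 (0.00162).

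3 members with low levels at T0 also rose at T14. Slc27a1, a fatty acid transport protein of muscle and fat, was at 34.5, 1.88 and 27.3 CPM at T0, 40.6, 44.3 and 42.1 in T7-RA against 27.1, 22.8 and 32.6 in T7+RA, and 57.7, 62.0 and 61.0 in T14-RA against 33.8, 34.6 and 25.4 in T14+RA. T0 replicate 2 was far below the other T0 cultures, the T14-RA cultures were above all of T0, and T14+RA overlapped with T0. The T14 change was 1.37 (SE 0.300 and edgeR adjusted p = 0.000225), and it was 2.06 without T0 replicate 1 and 0.89 without T0 replicate 2. Slc38a6, of the sodium-coupled neutral amino acid family, went from 2.76, 1.88 and 8.38 CPM at T0 to 18.0, 21.3 and 23.7 in T14-RA and 26.0, 28.3 and 29.0 in T14+RA (2.44, SE 0.472 and edgeR adjusted p = 3.04e-05). Slc43a2, a large neutral amino acid transporter, went from 17.9, 9.38 and 12.6 CPM at T0 to 43.2, 37.2 and 22.0 in T14-RA and 21.2, 18.9 and 27.2 in T14+RA (1.38, SE 0.336 and edgeR adjusted p = 0.000744). Both groups of day 14 were above T0 for these 2 genes. Slc27a1 lost its T14 call without T0 replicate 2 (adjusted p = 0.00571). Slc38a6 lost its T14 call without T0 replicate 1 (adjusted p = 0.00141). Slc43a2 lost its T14 call in 8 of the 15 fits that each left out 1 library, those without T0 replicates 2 and 3, T7-RA replicate 1, T14-RA replicates 1 and 2, T7+RA replicates 1 and 3 and T14+RA replicate 1 (adjusted p from 0.001 to 0.00697), and with DESeq2 (0.00454) and with limma-voom (0.00333).

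The RA term lowered 7 members, which carry glutamate, adenosine, taurine, cystine, choline, bicarbonate and neutral amino acids, and raised 5. For the 2 members called for all 3 terms, Slc1a3 and Slc29a1, and for Slc6a6 and Slc6a8, which carry taurine and creatine and went in opposite directions with RA, the 250 bases before the annotated start are shown to show what the proximal promoters hold. They come from RefSeq on build GRCr8, which is not the Rnor_6.0 build that the counts were made on, and are written on the strand of the gene. Capitals mark matches, on either strand, to GGGCGG (the GC box bound by SP1), AGGTCA (the half-site of retinoic acid receptors and other nuclear receptors) or TATAAA (the TATA box).

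Slc1a3 promoter, chr2:59557788-59558037, minus strand: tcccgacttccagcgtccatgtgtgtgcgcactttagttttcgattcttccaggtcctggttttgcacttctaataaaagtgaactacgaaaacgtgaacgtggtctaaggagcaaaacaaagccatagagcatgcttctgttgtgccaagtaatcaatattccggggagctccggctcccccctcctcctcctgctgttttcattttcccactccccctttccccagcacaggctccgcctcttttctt

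Slc29a1 promoter, chr9:22896849-22897098, plus strand: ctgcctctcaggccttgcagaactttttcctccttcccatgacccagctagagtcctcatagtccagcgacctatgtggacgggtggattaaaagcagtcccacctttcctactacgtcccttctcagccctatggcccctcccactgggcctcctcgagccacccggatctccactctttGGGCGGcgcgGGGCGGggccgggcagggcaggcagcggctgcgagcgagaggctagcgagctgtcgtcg

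Slc6a6 promoter, chr4:125752252-125752501, plus strand: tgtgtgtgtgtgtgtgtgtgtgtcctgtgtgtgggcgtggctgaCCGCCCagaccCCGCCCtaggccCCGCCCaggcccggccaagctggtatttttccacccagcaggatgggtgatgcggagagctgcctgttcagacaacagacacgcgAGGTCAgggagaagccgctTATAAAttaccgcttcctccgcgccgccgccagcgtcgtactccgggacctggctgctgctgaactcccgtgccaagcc

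Slc6a8 promoter, chrX:156535767-156536016, plus strand: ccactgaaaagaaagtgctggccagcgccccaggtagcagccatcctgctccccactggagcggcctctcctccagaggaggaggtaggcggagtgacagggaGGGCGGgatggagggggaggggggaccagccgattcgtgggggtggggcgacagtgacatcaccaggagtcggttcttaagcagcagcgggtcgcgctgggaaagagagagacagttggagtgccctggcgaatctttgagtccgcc

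None of the motifs was found in the window of Slc1a3, for which the table lists 3 starts and the one shown is that with the lowest coordinate. Slc29a1 held 2 GC boxes, at −69 and −59 from the start, and Slc6a8 held 1, at −147. Slc6a6 held 3 GC boxes on the other strand, an AGGTCA at −98 and a TATAAA at −79. Over the 108 members with a promoter in the table, AGGTCA was present in 10 (9.26%), beside 14% of the 33469 promoters of the table. GGGCGG was present in 71 of the 108 (65.7%, beside 30.5%) and TATAAA in 4 (3.70%, beside 12.9%). Of the 9 members called for RA that had a promoter, 1 held AGGTCA, 7 held GGGCGG and 1 held TATAAA. A match says that the letters are present and not that a factor binds there.

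Slc1a3 (ENSRNOG00000016163, band 2q16), the glutamate and aspartate transporter best known from astrocytes, had the largest RA change of the members. Its level was 26.2, 18.8 and 31.4 CPM at T0, 59.6, 72.6 and 72.6 in T7-RA against 22.8, 18.8 and 20.6 in T7+RA, and 76.9, 65.5 and 44.0 in T14-RA against 13.5, 7.86 and 19.9 in T14+RA. Without RA every culture of days 7 and 14 was above T0, whereas the cultures with RA lay within or below the T0 range and below all cultures without RA of the same day. The log2 change was 1.48 for T7 (SE 0.257 and edgeR adjusted p = 1.09e-05), 1.24 for T14 (SE 0.265 and edgeR adjusted p = 0.00014) and −1.94 for RA (SE 0.196 and edgeR adjusted p = 5.89e-12). Slc29a1, whose rise with time is given above, was lower in every culture with RA than in every culture without RA of its day, and fell by 1.20 with RA (SE 0.125 and edgeR adjusted p = 1.58e-11). The RA change of Slc4a3 was −1.01 (SE 0.172 and edgeR adjusted p = 7.09e-06), and its values were all lower with RA than without RA at each day. Slc1a3 lost its T14 call without T0 replicate 1 (0.0011), T0 replicate 2 (0.00155) or T14-RA replicate 1 (0.00412).

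Slc38a4, a sodium-coupled transporter of neutral and cationic amino acids, was at 131, 93.8 and 96.4 CPM at T0, 70.4, 73.9 and 72.6 in T7-RA against 37.1, 22.8 and 30.9 in T7+RA, and 57.7, 67.3 and 74.5 in T14-RA against 28.0, 28.3 and 30.8 in T14+RA. The cultures with RA were the lowest of all, and the RA change was −1.22 (SE 0.160 and edgeR adjusted p = 1.41e-08). Slc7a11, the light subunit of the cystine/glutamate exchanger, was at 44.1, 31.9 and 60.8 CPM at T0, 66.8, 69.9 and 82.8 in T7-RA against 44.2, 43.0 and 37.7 in T7+RA, and 40.8, 33.7 and 50.8 in T14-RA against 11.6, 14 and 30.8 in T14+RA. It was lower with RA than without RA in every culture of each day and fell by 0.97 (SE 0.184 and edgeR adjusted p = 5.25e-05). The taurine transporter Slc6a6 was at 269, 205 and 298 CPM at T0, 354, 355 and 331 in T7-RA against 244, 267 and 228 in T7+RA, and 377, 313 and 409.8 in T14-RA against 227, 169.7 and 230.2 in T14+RA. Here too no culture with RA reached those without RA of the same day, and the change was −0.65 (SE 0.0938 and edgeR adjusted p = 2.06e-07). Slc44a1, the choline transporter, went from 62.0, 61.8 and 81.3 CPM in T7-RA to 48.5, 29.5 and 41.1 in T7+RA and from 68.5, 83.2 and 93.1 in T14-RA to 49.2, 45.6 and 41.7 in T14+RA, a change of −0.79 (SE 0.151 and edgeR adjusted p = 5.33e-05).

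Of the 5 members raised by RA, Slc6a8 (ENSRNOG00000057620, band Xq37), the creatine transporter, had the lowest adjusted p. It was at 69.0, 75.0 and 92.2 CPM at T0, 107, 98.1 and 118 in T7-RA against 155, 164 and 178 in T7+RA, and 137, 126 and 159 in T14-RA against 252, 222 and 281 in T14+RA. It was above T0 in every later culture and above the cultures without RA of the same day in every culture with RA, and rose by 0.91 at T14 (SE 0.159 and edgeR adjusted p = 4.4e-06) and by 0.74 with RA (SE 0.101 and edgeR adjusted p = 4.95e-08). Slc16a14, a monocarboxylate transporter relative whose cargo is poorly known, was at 8.28, 0 and 4.19 CPM at T0, 3.58, 5.38 and 2.90 in T7-RA against 12.8, 6.71 and 1.71 in T7+RA, and 18.0, 15.9 and 11.9 in T14-RA against 38.6, 62.9 and 56.2 in T14+RA. T14+RA was above all other groups, the day 7 groups overlapped, and the RA change was 1.53 (SE 0.295 and edgeR adjusted p = 6.81e-05). Slc20a2, a sodium-coupled phosphate importer, rose by 0.61 (SE 0.126 and edgeR adjusted p = 0.000178). Slc5a6, which carries biotin and pantothenate, was at 91.0, 73.2 and 79.7 CPM at T0, 97.8, 94.1 and 103 in T7-RA against 155, 142 and 161 in T7+RA, and 135, 117 and 132 in T14-RA against 162, 176 and 149 in T14+RA, without overlap between the RA conditions at either day, and rose by 0.48 (SE 0.104 and edgeR adjusted p = 0.00036). Slc20a2 lost its RA call in 4 of the 15 fits that each left out 1 library, those without T7-RA replicates 1 and 3 and T7+RA replicates 2 and 3 (adjusted p from 0.00123 to 0.00208). Slc5a6 lost its RA call in 5 of the 15 fits that each left out 1 library, those without T7-RA replicates 1 and 2, T14-RA replicate 2 and T7+RA replicates 1 and 3 (adjusted p from 0.0012 to 0.00201), and with DESeq2 (0.00107).

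**Figure D4:**
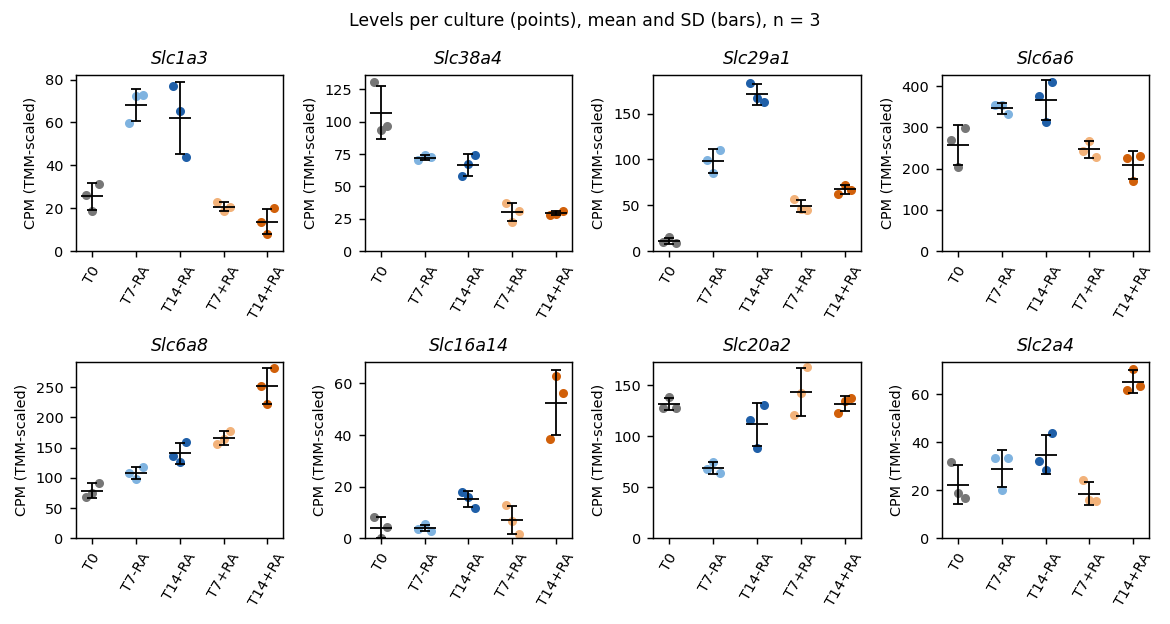
The vertical axis of each panel gives CPM, points are the 3 cultures of each of the 5 groups, and bars are the mean and SD. The upper row holds 4 members lowered by RA, whose cultures with RA lie below those without RA of the same day, and the lower row holds Slc6a8, Slc16a14, Slc20a2 and Slc2a4, of which Slc20a2 differs by RA at day 7 and Slc2a4 stands apart in T14+RA.

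Day-specific RA changes came from a model of group means. The 2 days compare different libraries, but all groups share a common estimate of the spread, so the calls of the 2 days are not independent. At day 7, RA was associated with 4 members (1 up and 3 down, 2.99%), beside 3.17% of all genes and 3.92% of those with 100 counts or more. At day 14 it was associated with 10 members (4 up and 6 down, 7.46%), beside 4.81% and 5.78%. The day 7 number was 2 without T7+RA replicate 2 and 7 without T0 replicate 2, beside 276 and 432 of all genes. The day 14 number was 5 without T14-RA replicate 3 and 6 without T14+RA replicate 1, beside 385 and 376 of all genes. Slc1a3, Slc29a1 and Slc38a4 were called, down, at both days (2.24% of the members, beside 2.13% of all genes). Their changes were −1.71 and −2.21 for Slc1a3 at days 7 and 14 (SE 0.262 and edgeR adjusted p = 8.89e-07 at day 7 and SE 0.288 and edgeR adjusted p = 1.04e-08 at day 14), −0.99 and −1.36 for Slc29a1 (edgeR adjusted p = 6.91e-05 and 8.21e-10), and −1.26 and −1.18 for Slc38a4 (edgeR adjusted p = 2.33e-05 and 9.21e-05). All 4 members called at day 7 had the same sign at day 14, and all 10 called at day 14 had the same sign at day 7. Over all 134 members 88 had the same sign at both days (65.7%), beside 64.4% of the genes with 100 counts or more. Slc29a1 lost its day 7 RA call without T7-RA replicate 3 (0.00194), T7+RA replicate 2 (0.00228) or T7+RA replicate 3 (0.00153). Slc38a4 lost its day 7 RA call without T7+RA replicate 2 (adjusted p = 0.00256). Slc38a4 lost its day 14 RA call without T14-RA replicate 3 (0.00203) or T14+RA replicate 1 (0.00281).

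7 members passed at day 14 and not at day 7. Slc6a8 rose by 0.84 (SE 0.133 and edgeR adjusted p = 1.76e-06) and Slc16a14 by 1.70 (SE 0.330 and edgeR adjusted p = 8.36e-05), while Slc6a6 fell by 0.81 (SE 0.125 and edgeR adjusted p = 9.62e-07) and Slc4a3 by 1.19 (SE 0.213 and edgeR adjusted p = 1.8e-05). Slc25a4, the ADP/ATP carrier of muscle and heart mitochondria, was at 598, 632 and 645 CPM in T14-RA and 875, 937 and 816 in T14+RA, without overlap, and rose by 0.49 (SE 0.10 and edgeR adjusted p = 0.000214). At day 7 it was at 539, 568 and 475 CPM without RA and 549, 571 and 574 with RA, which overlapped (0.10, SE 0.103 and edgeR adjusted p = 0.745). Its close relative Slc25a5 was at 191, 218 and 186 CPM in T14-RA and 222, 273 and 247 in T14+RA and was not called (0.31, SE 0.133 and edgeR adjusted p = 0.137). Slc44a2, of the choline transporter family, was at 233, 219.6 and 232 CPM in T14-RA and 156, 163 and 132 in T14+RA and fell by 0.59 (SE 0.134 and edgeR adjusted p = 0.000923). Slc16a14 lost its day 14 RA call without T14-RA replicate 3 (0.00208) or T14+RA replicate 2 (0.00192), and with DESeq2 (0.00287). Slc4a3 lost its day 14 RA call without T14-RA replicate 1 (0.00143) or T14+RA replicate 1 (0.00174). Slc25a4 lost its day 14 RA call in 5 of the 15 fits that each left out 1 library, those without T14-RA replicates 1, 2 and 3 and T14+RA replicates 1 and 2 (adjusted p from 0.00145 to 0.00669). Slc44a2 lost its day 14 RA call in 10 of the 15 fits that each left out 1 library, those without T7-RA replicates 1 and 2, T14-RA replicates 1, 2 and 3, T7+RA replicates 1 and 3 and T14+RA replicates 1, 2 and 3 (adjusted p from 0.00117 to 0.01), and with DESeq2 (0.00479) and with limma-voom (0.00207).

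A call at 1 day and not at the other does not show that the days differ, so the difference between the RA changes of the 2 days was itself tested, and called at an adjusted p under 0.05. It was called for 1 member (0.746%), beside 0.743% of all genes and 0.917% of those with 100 counts or more. This was Slc2a4 (ENSRNOG00000017226, band 10q24), the glucose transporter that insulin brings to the surface of muscle and fat cells. It was at 31.7, 18.8 and 16.8 CPM at T0, 33.4, 20.2 and 33.4 in T7-RA against 24.2, 16.1 and 15.4 in T7+RA, and 32.4, 28.3 and 44.0 in T14-RA against 61.7, 70.7 and 63.5 in T14+RA. The T14+RA cultures were above all others, whereas those of T7+RA overlapped with T7-RA. The RA change was −0.63 at day 7 (SE 0.312) and 0.90 at day 14 (SE 0.242), neither called at 0.001 (edgeR adjusted p = 0.282 and 0.00666), and their difference was 1.53 (SE 0.395 and edgeR adjusted p = 0.0391). Slc2a4 lost its between-day call in 9 of the 15 fits that each left out 1 library, those without T7-RA replicates 1 and 3, T14-RA replicates 1 and 2, T7+RA replicates 2 and 3 and T14+RA replicates 1, 2 and 3 (adjusted p from 0.0516 to 0.197), and with limma-voom (0.0546). DESeq2 gave no adjusted p for this gene, as its independent filter left it out. The phosphate importer Slc20a2 passed at day 7 and not at day 14, but not in the test of the difference. It was at 128, 139 and 128 CPM at T0, 68.0, 75.3 and 63.9 in T7-RA against 121, 142 and 168 in T7+RA, and 117, 88.6 and 130.4 in T14-RA against 123, 135 and 138 in T14+RA, so that RA and no RA did not overlap at day 7 but did at day 14. The RA change was 1.05 at day 7 (SE 0.162 and edgeR adjusted p = 1.22e-06) and 0.22 at day 14 (SE 0.154 and edgeR adjusted p = 0.455), and their difference was −0.82 (SE 0.225 and edgeR adjusted p = 0.0651). Over the 15 fits that each left out 1 library, between 0 and 2 members were called for the difference, beside 51 to 129 of all genes.

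**Figure D5:**
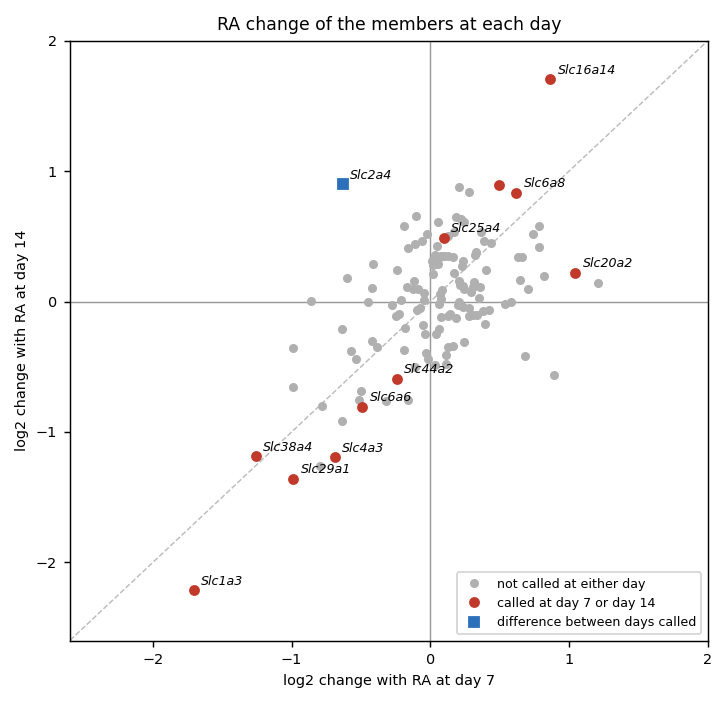
Each point is 1 of the 134 members, with its log2 change with RA at day 7 on the horizontal and at day 14 on the vertical axis; red points were called at either day, the blue square is Slc2a4, whose 2 changes differed, and the dashed line marks equal changes. The 11 red points lie on the same side of 0 at both days.

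Family sums show where the abundance lay and how it moved, as a description without a test. The 5 SLC7 members summed to 937 ± 54.1 CPM at T0, 641 ± 53.1 in T7-RA against 675 ± 12.2 in T7+RA, and 489.5 ± 58.9 in T14-RA against 387 ± 44.3 in T14+RA, with Slc7a5 and Slc7a1 as the members that were called for time. The 6 SLC38 members summed to 1289 ± 90.2 CPM at T0, 1019.9 ± 122 in T14-RA and 884 ± 80.9 in T14+RA. Most of that was Slc38a2, at 838 ± 87.5 CPM at T0 and 689 ± 89.6 in T14-RA, which was not called (−0.29, SE 0.101 and edgeR adjusted p = 0.0214). The 2 SLC29 members summed to 69.0 ± 1.41 CPM at T0, 220.2 ± 11.1 in T14-RA and 103 ± 6.25 in T14+RA. The 4 SLC16 members went from 87.2 ± 12.1 CPM at T0 to 157 ± 14 in T14-RA and 228 ± 25.9 in T14+RA. The bicarbonate family SLC4, with 1 member called up and 1 called down at T14, summed to 329.9 ± 29.3 CPM at T0 and 283 ± 13.0 in T14-RA.

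Of the 33 carriers listed for a well-known role in muscle or in cell metabolism, 29 were in the table and 26 were members. At T14, 6 of the 29 rose and 3 fell, and with RA 2 rose and 4 fell. The called share was 31.0% for T14 and 20.7% for RA, beside 17.3% and 6.39% of all genes, and the median log2 changes were 0.28 and 0.17, beside 0.05 and −0.01. This list and those below were made with earlier results of these data known, so nothing is read from their shares. Members of this list without a call in any comparison included Slc25a3, the mitochondrial phosphate carrier (405 ± 79.5 CPM at T0 and 579 ± 54.2 in T14+RA; RA at day 14 0.29, SE 0.109 and edgeR adjusted p = 0.0731). Slc25a20, which carries acylcarnitines into mitochondria, was at 40.3 ± 5.42 CPM in T7-RA and 63.4 ± 6.80 in T7+RA (RA 0.50, SE 0.149 and edgeR adjusted p = 0.0138). The phosphate importer Slc20a1 was at 113 ± 27.2 CPM in T14-RA and 166 ± 10.5 in T14+RA (RA 0.34, SE 0.109 and edgeR adjusted p = 0.0224). The glycine transporter Slc6a9 was at 30.2 ± 9.43 CPM at T0 and 46.0 ± 3.66 in T7-RA (T7 0.74, SE 0.247 and edgeR adjusted p = 0.0221). Slc39a14, an importer of zinc and iron, was at 32.0 ± 18.0 CPM at T0 and 36.0 ± 7.89 in T14-RA (T14 0.13, SE 0.279 and edgeR adjusted p = 0.757). At this depth a missing call is no sign that a gene did not change.

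Carriers with other symbols were read from a second list, of which 26 of 32 genes were in the table. At T14, 2 rose and 1 fell, and with RA 3 rose. The called share was 11.5% for T14 and 11.5% for RA, beside 17.3% and 6.39% of all genes, and the median log2 changes were 0.01 and 0.13, beside 0.05 and −0.01. The mitochondrial carrier Ucp2 went from 84.1, 77.9 and 71.1 CPM in T14-RA to 133, 145 and 97.9 in T14+RA (RA 0.63, SE 0.123 and edgeR adjusted p = 7.5e-05). The phosphate exporter Xpr1 went from 31.2, 24.8 and 38.9 to 56.9, 55.0 and 85.2 CPM (RA 0.94, SE 0.182 and edgeR adjusted p = 7.04e-05). Flvcr2, of the heme and choline transporter family, rose by 0.83 with RA (SE 0.183 and edgeR adjusted p = 0.000583). Mtch2, a mitochondrial outer membrane protein of the carrier family, and Npc1, which moves cholesterol out of lysosomes, rose at T14 by 0.66 and 0.96 (edgeR adjusted p = 0.000645 and 6.25e-06), and the organic anion transporter Slco3a1 fell by 1.20 (SE 0.200 and edgeR adjusted p = 1.91e-06).

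The pumps and partner proteins on which carriers depend were read from the last list, with 13 of 18 genes in the table. At T14, 4 rose and 1 fell, and with RA 1 rose and 2 fell. The called share was 38.5% for T14 and 23.1% for RA, beside 17.3% and 6.39% of all genes, and the median log2 changes were 0.38 and 0.03, beside 0.05 and −0.01. Atp2a2, the calcium pump of the sarcoplasmic reticulum, was at 881, 759.8 and 876 CPM at T0 and 1392, 1344 and 1341 in T14-RA (0.73, SE 0.0976 and edgeR adjusted p = 9.45e-09). The sodium pump subunit Atp1b3 rose by 1.01 at T14 (SE 0.132 and edgeR adjusted p = 6.49e-09), and the subunit Atp1b1 rose by 0.56 with RA (SE 0.113 and edgeR adjusted p = 0.000121). Atp2b4, a calcium pump of the plasma membrane, changed by 0.96 for T14 (SE 0.169 and edgeR adjusted p = 5.27e-06) and by −1.09 for RA (SE 0.126 and edgeR adjusted p = 3.4e-10), the directions of Slc1a3, Slc29a1 and Slc4a3. Txnip, which promotes the internalisation of glucose transporters, changed by 0.73 for T14 (SE 0.166 and edgeR adjusted p = 0.000352) and by −0.77 for RA (SE 0.124 and edgeR adjusted p = 2.33e-06). Fxyd5, a regulator of the sodium pump, went from 26.2, 35.6 and 14.7 CPM at T0 to 3.60, 5.31 and 3.39 in T14-RA (−3.10, SE 0.463 and edgeR adjusted p = 1.62e-07).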

How the data were processed

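RNA-seq was analysed for 15 libraries of H9c2 cultures, 3 for each of the 5 groups, and the labels gave groups and replicate numbers. The authors trimmed the reads, aligned them with HISAT2 and obtained counts by gene from featureCounts, with Rnor_6.0 as the build in the submitters' processing notes. They deposited raw counts per gene for genes with a summed count above 20, and the smallest sum in the table was 21. Which annotation release was used, and whether counting was stranded, is not given in the sources used here, so reads of genes that overlap on opposite strands, such as Slc7a6 and Slc7a6os, may be shared. The deposited gene length carries no definition and was used only for levels per kilobase.

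Counts of all 11574 genes were fitted with edgeR 4.0.16 in R 4.3.3 (TMM, robust quasi-likelihood F test, common dispersion 0.00962 and biological coefficient of variation 9.81% in the additive model). Terms of the additive model were an intercept, T7, T14 and RA. A model of 5 group means gave the second week without RA, the RA change of each day and their difference. P-values were adjusted by the Benjamini-Hochberg method over all genes and called under 0.001, or under 0.05 for the difference. Each SE was worked back from the test, as the absolute log2 change over the square root of F. It is an approximation, and a poor one where counts are very low. No set test was run. Statistics were tested on simulated counts. Sampling noise was exceeded by every pair of replicates (smallest chi-square 1.07 per degree of freedom, p = 2.31e-07), so all 15 were kept. The T0 pairs differed most, at 2.06 to 3.09 per degree of freedom. The other pairs were at 1.07 to 1.53 in T7-RA, T14-RA and T7+RA and at 1.44 to 2.04 in T14+RA. Every T7 and T14 change rests on these T0 cultures. The cultures are described as biological replicates without mention of separate passages, so p-values measure the spread between these libraries, which may be partly technical. The cell line tag of the labels counts upward from H9c2 over the samples, while their titles all name H9c2, and the samples were treated as 1 line.

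Alternatives were DESeq2 1.42.0, limma-voom (limma 3.58.1), scaling by library size alone or by relative log expression, filterByExpr of edgeR, other thresholds, a replicate block, a minimum of 500 counts, omission of Slc9a3r1 and Slc9a3r2, and each library left out in turn. Omission of all 4 members that are no carriers was added after seeing the data.

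The members and lists were chosen with earlier results of these data known. Genes named were the called members with the 10 largest rises and falls for T7, T14 and RA, the 5 largest for RA at each day, every member called for the difference, the list of 33 carriers, the 3 genes on each side of 100 counts, and genes of the other lists called for T14 or RA. Slc25a11, Slc25a12 and Slc44a2, called members outside this rule, and Slc12a4 and Slc39a7, named for their level, and Slc25a13, SLC30 members without a call and single marker genes, were chosen after their values were seen. The class of SLC66 was assigned after its symbols were seen. Some members are counted but not reported by name here. Promoters were matched by symbol for 108 of the 134 members.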

Additional observations from a re-analysis of the deposited data

Results flagged for a closer look

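The RA change of Slc2a4, the insulin-responsive glucose transporter, differed between the days, with day 14 minus day 7 at 1.53 on the log2 scale in a test of the difference itself (edgeR adjusted p = 0.0391). The call was lost in 9 of the 15 fits that each left out 1 library (adjusted p up to 0.197) and with limma-voom (0.0546). The means were 29.0 ± 7.65 CPM in T7-RA against 18.6 ± 4.90 in T7+RA, and 34.9 ± 8.14 in T14-RA against 65.3 ± 4.77 in T14+RA (SD, n = 3). The level with RA was lower at day 7 in the mean, with overlapping cultures, and higher at day 14 in 3 of 3 cultures.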

How the results depend on the processing

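Of all 65 calls of members, 35 held in every alternative run and none changed sign. The other 30 were lost in at least 1 fit that left out a library, 10 of them also with DESeq2, 7 with limma-voom and 2 with scaling by library size only. At an adjusted p under 0.05 the numbers of members called were 38 for T7, 55 for T14, 28 for RA, 11 for the second week without RA, 13 for RA at day 7 and 22 for RA at day 14 (23.1%, 35.4%, 14.7%, 7.79%, 7.41% and 11.2% of all genes), and at 0.001 it was 0 for the difference between days, where 9 members had an unadjusted p under 0.05. With a minimum of 500 counts, which left 58 members, 15 were called for T14, 1 for the second week and 0 for the difference, and the median change was −0.18 for T14, 0.15 for RA, −0.072 for the second week, 0.11 for RA at day 14 and 0.050 for the difference. Shares of all genes at this minimum were not worked out, so nothing particular to the members is read from these numbers. DESeq2 called 1 member for the second week and 0 for the difference, for which it gave no adjusted p in 63 of the members, and limma-voom called 0 for the difference. Over all genes DESeq2 called 232 for the second week and 63 for the difference, and limma-voom called 87 for the difference. With library size only the median change of the members was 0.13 for T7 and 0.13 for T14, and the summed level of SLC25 in T14-RA was 2163 CPM. Leaving out 1 library at a time gave 7 to 13 members for T7, 19 to 25 for T14, 10 to 15 for RA, 1 to 2 for the second week, 2 to 7 for RA at day 7, 5 to 12 for RA at day 14 and 0 to 2 for the difference. Of all genes the same fits called 655 to 1061 for T7, 1550 to 2028 for T14 and 625 to 838 for RA. They called 200 to 420 for the second week, 273 to 432 for RA at day 7, 376 to 657 for RA at day 14 and 51 to 129 for the difference. Leaving out the 4 members that are no carriers changed no number of calls. The cause of these shifts was not tested, beyond the fewer genes or samples that a setting leaves.

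Whether the replicate numbers of the labels pair the cultures cannot be decided here. Deviations from the group means correlated at a mean r of 0.018 over 30 pairs of same-numbered libraries (−0.035 to 0.099), across genes. Over 60 pairs with different numbers the mean r was −0.009. Deviations from a group mean cancel out within the group, so these values depend on each other and draw no line between pairing and none. With a replicate block 2 members were called for the difference between days, 1 up and 1 down, and the numbers for T7, T14, RA, RA at day 7 and RA at day 14 were 14, 25, 12, 6 and 12. Over all genes the block called 118 for the difference, where the main fit called 86. For T7, T14, RA, RA at day 7 and RA at day 14 it called 1083, 2088, 797, 429 and 628, where the main fit called 1010, 2004, 740, 367 and 557. At 508397 to 1030820 counts per library, members near 100 counts in all have few counts in each library, and their missing calls carry little weight.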
